A study of Homo sapiens with 4 samples.

Results

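Transcript levels of the histone genes were examined in 2 human cell lines labelled as liver cancer. Each line was untreated or treated for 24 h with low-frequency ultrasound plus RSL3@O2-ICG NBS. The members were picked by gene symbol in the table of coding genes. Symbols starting with HIST1H, HIST2H, HIST3H or HIST4H gave 71 clustered, replication-dependent genes, and symbols starting with H1F, H2AF, H2BF or H3F gave 19 replacement histone genes, together 90 of the 19739 genes listed. The clustered genes comprised 6 H1, 17 H2A, 18 H2B, 15 H3 and 15 H4 genes, of which 55 belonged to HIST1, 12 to HIST2, 3 to HIST3 and 1 to HIST4. The replacement genes comprised 4 H1, 9 H2A, 3 H2B and 3 H3 genes.

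The 4 libraries were treated cells labelled HepG2, untreated cells labelled HepG2, treated Huh7 cells and untreated Huh7 cells, with 1 library in each group. RSL3 is a small molecule that inhibits the lipid peroxide reductase GPX4, and ICG commonly stands for the dye indocyanine green, while the labels do not spell out NBS. No sample given the carrier alone, the ultrasound alone or RSL3 alone was analysed here, so the treatment is described as a whole. Both lines are labelled as hepatocellular carcinoma.

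Clustered histone genes supply the bulk of the nucleosome cores and linker histones while DNA is copied. They lack introns, and most of their messengers end in a stem-loop in place of a poly(A) tail. This stem-loop is bound by SLBP and governs cleavage, translation and decay of the messenger. The replacement genes contain introns in most cases, end in a poly(A) tail and are expressed throughout the cell cycle, as H3F3A and H3F3B do for the H3 variant that marks transcribed chromatin, or H2AFZ for the H2A variant at promoters. Levels are given as FPKM, fragments per kilobase of transcript scaled to the depth of the library.

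The histone stem-loop was searched with a fixed letter pattern of the histone kind, a stem of 6 bases a side around a loop of 4. Other hairpins of that size were not searched. The pattern was found in GENCODE 29 transcripts of 32 of the 71 clustered genes and of 1 of the 19 replacement genes (H2AFX). Of 19574 other genes of the table, 23 had it. Many clustered models hold the coding part alone, so that no match says only that these letters are not in the model. The forms shown cover each histone class with a match, with the stem and loop in capitals and the flanking bases in lower case, 5′ to 3′.
HIST2H2AA3: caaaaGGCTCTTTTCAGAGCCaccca
HIST1H2AG: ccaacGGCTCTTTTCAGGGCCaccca
HIST1H2BF: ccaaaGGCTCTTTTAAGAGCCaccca
HIST1H3H: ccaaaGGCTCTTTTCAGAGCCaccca
HIST1H3E: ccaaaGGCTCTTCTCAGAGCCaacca
HIST1H4J: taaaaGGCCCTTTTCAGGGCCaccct
HIST2H4A: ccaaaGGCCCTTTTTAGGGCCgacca
H2AFX: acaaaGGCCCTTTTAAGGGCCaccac
The core of HIST2H2AA3 and HIST1H3H was the commonest, and was found in 17 genes. The 8 H4 genes with a match had one of 2 cores, in 5 and 3 genes, and neither of these cores occurred in a clustered H2A, H2B or H3 gene with a match.

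The positions in the deposited table placed HIST1 at chr6:25726132-27893843, HIST2 at chr1:143905556-149888013, HIST3 at chr1:228424845-228460601 and HIST4H4 at chr12:14712588-14771131. The sources used here name no genome build, and 69 of the 90 members were listed at exactly their GENCODE 29 (GRCh38) position. The libraries held an inferred 22900000 to 26400000 fragments. Of 6 hepatocyte markers, all passed 1 FPKM in Huh7, while in the libraries labelled HepG2 none did: ALB, FGA and FOXA2 were listed at 0, and HNF4A, the highest, was at 0.166 FPKM treated and 0.449 FPKM untreated. These libraries are therefore called by their label throughout.

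Among the clustered genes 61 of 71 passed the filter of 1 FPKM in at least 1 of the 2 libraries labelled HepG2, and 63 of 71 did so in Huh7. The 7 genes below 1 FPKM in every library were HIST1H1T, HIST1H2AA, HIST1H2BA, HIST2H3PS2, HIST3H3, HIST1H4F and HIST1H4G, of which HIST1H1T, HIST1H2AA and HIST1H2BA are known as testis genes. Many of the remaining clustered genes had an FPKM among the highest of the table. Of the 100 coding genes with the highest FPKM, 11 were clustered histone genes in treated and 19 in untreated cells labelled HepG2, and 10 were in treated and 14 in untreated Huh7 cells. No replacement gene was among the 100 in any of the 4 libraries. The labels do not state the selection of transcripts from total RNA, and its part in the level of messengers without a poly(A) tail was not tested.

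Treated cells labelled HepG2 had a lower clustered histone message than untreated cells, and replacement histones were close to level. The summed FPKM of the clustered genes was 11717 in treated and 22955 in untreated cells labelled HepG2, which is 3.43% and 6.51% of the summed FPKM of all coding genes. The summed FPKM of the replacement genes was 708 treated and 726 untreated. The clustered sum was thus 16.6 times the replacement sum in treated and 31.6 times in untreated cells. In bulk libraries fewer cells in S phase and less histone message per cell cannot be told apart.

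In Huh7 the summed FPKM of both kinds of histone message was lower to a similar degree. The clustered sum was 12099 FPKM in treated and 16313 FPKM in untreated Huh7 cells, or 3.20% and 4.41% of the coding sum. The replacement sum was 546 FPKM treated and 722 FPKM untreated. Much of this difference lay in 1 gene, H2AFZ, at 103 FPKM treated and 219 FPKM untreated, so the sum does not describe each replacement gene. The clustered sum was 22.2 times the replacement sum in treated and 22.6 times in untreated Huh7 cells.

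**Figure D1:**
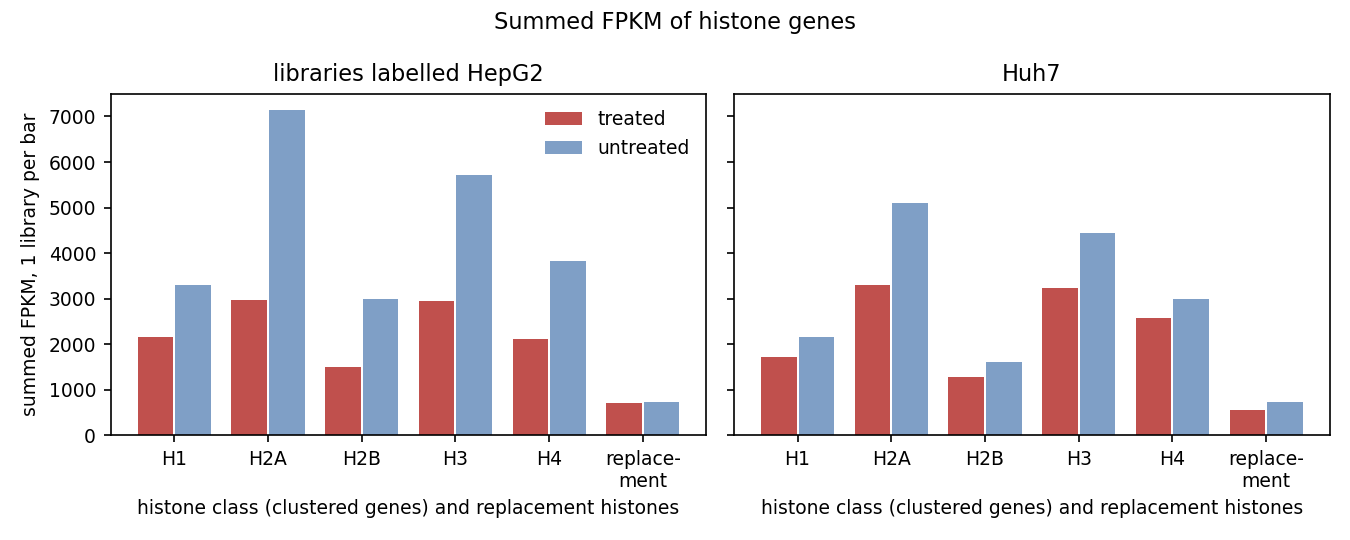
Summed FPKM of the clustered genes by histone class and of all replacement genes, with 1 library per bar, treated (red) left of untreated (blue). The treated bar is lower for every clustered class in both panels, most for H2A in the libraries labelled HepG2 at 2982 against 7146 FPKM, while the replacement bars of that label are 708 FPKM treated and 726 FPKM untreated.

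For each gene a log2 ratio of treated FPKM + 1 over untreated FPKM + 1 was taken, and a gene was counted as lower or higher from a 2-fold difference. A line has 1 library per condition, so no test was made within it. In the libraries labelled HepG2, 22 of 61 clustered genes were at least 2-fold lower in treated cells (36.1%), against a background of 2.43% of all 11843 genes that passed. The 1 clustered gene at least 2-fold higher compares with 6.7% of all genes. The log2 ratio was below 0 for 58 of the 61, with a median of −0.91, while the median over all genes was 0.09.

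Every clustered class had a median below that of all genes in the libraries labelled HepG2. The median log2 ratio was −1.05 over 16 H2A genes, −0.91 over 12 H3 genes, −0.87 over 16 H2B genes, −0.86 over 12 H4 genes and −0.56 over 5 H1 genes. At least 2-fold lower were 9 H2A, 6 H2B, 5 H3, 1 H4 and 1 H1 genes. Apart from HIST4H4, HIST2H4A and HIST2H4B, the 9 other H4 genes lay between −0.99 and −0.66. By cluster, the median was −0.92 over 47 HIST1 genes, with 17 lower, and −0.70 over 11 HIST2 genes, with 4 lower. The 3 stretches of HIST1 had medians of −0.91, −0.91 and −0.99 from the low to the high coordinate.

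**Figure D2:**
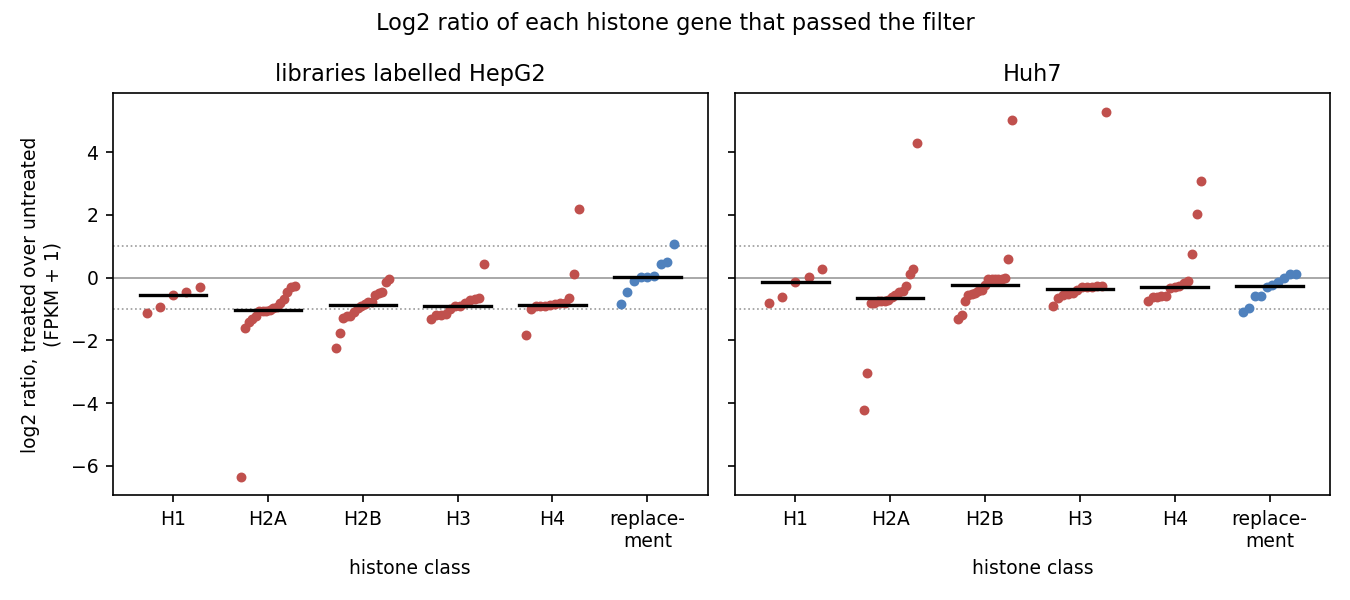
Log2 ratio of treated over untreated FPKM + 1 for each histone gene that passed the filter (points; clustered classes in red, replacement in blue), with the median as a bar and dotted lines at 2-fold. In the libraries labelled HepG2 the class medians run from −1.05 to −0.56 and the replacement median is 0.03, while in Huh7 they run from −0.66 to −0.14 beside −0.26.

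HIST2H2AC, an H2A gene of HIST2, had the lowest ratio of any gene in either line. Its level was 10.8 FPKM in treated and 968 FPKM in untreated cells labelled HepG2, a log2 ratio of −6.36 or 82.3-fold. In Huh7 it was at 580 FPKM treated and 698 FPKM untreated, a log2 ratio of −0.27. The treated library labelled HepG2 held 97 inferred fragments. Their 95% Poisson interval was 8.71 to 13.1 FPKM, against 949 to 987 FPKM in the untreated library. These intervals cover counting error only and leave out the sharing of reads between copies. They rest on a depth inferred from genes over 600 bases. The gene has 1 model of 390 bases at chr1:149886975-149887364, and 23.7% of its 75-base windows also occur in another histone member, so the assignment of reads between copies is uncertain. Without it the H2A sum was still 2971 FPKM treated and 6179 FPKM untreated.

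The next lowest clustered genes were H2B, H4 and H2A genes. HIST1H2BB stood at 26.9 FPKM treated and 131 FPKM untreated in cells labelled HepG2, a log2 ratio of −2.24. HIST4H4, the only member of its cluster, was at 23.0 FPKM treated and 85.1 FPKM untreated (−1.84). HIST1H2BM was at 10.1 FPKM treated and 37.0 FPKM untreated (−1.77). Of these 3, HIST1H2BB and HIST1H2BM are listed at their GENCODE 29 position with no exonic overlap and no window shared with another member. HIST1H2AK was at 86.2 FPKM treated and 262 FPKM untreated (−1.59), but its exon lies wholly inside an exon of HIST1H2BN on the other strand. HIST1H2AB followed at 237 FPKM treated and 636 FPKM untreated (−1.42).

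The other genes at least 2-fold lower in treated cells labelled HepG2 had log2 ratios between −1.31 and −1.01. Among H2A these were HIST1H2AH, HIST1H2AL, HIST2H2AA3, HIST2H2AA4, HIST1H2AE and HIST1H2AI. The duplicated genes HIST2H2AA3 and HIST2H2AA4, which share their coding sequence, were the 2 most abundant H2A genes, HIST2H2AA3 at 617 FPKM treated and 1296 FPKM untreated and HIST2H2AA4 at 544 FPKM treated and 1129 FPKM untreated. Among H2B they were HIST1H2BO, HIST1H2BI, HIST1H2BF and HIST1H2BJ. Among H3 they were HIST1H3D, HIST2H3D, HIST1H3H, HIST1H3F and HIST1H3B, of which HIST1H3B was the most abundant at 738 FPKM treated and 1484 FPKM untreated (−1.01). HIST1H3C, the most abundant H3 gene in treated and the second in untreated cells labelled HepG2, was at 883 FPKM treated and 1383 FPKM untreated (−0.65). Of the 22 lower genes, 6 are at their GENCODE 29 position with no overlap, no shared window and no other coding gene within their listed span: HIST1H1B, HIST1H2AB, HIST1H2BB, HIST1H2BI, HIST1H2BM and HIST1H3B.

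Linker histone genes differed among themselves. HIST1H1B was at 524 FPKM treated and 1157 FPKM untreated in cells labelled HepG2 (−1.14), the only H1 gene past 2-fold. HIST1H1C was at 1031 FPKM treated and 1272 FPKM untreated (−0.30), so that its share of the H1 sum was 47.6% in treated and 38.6% in untreated cells. In Huh7 the same 2 genes swapped their order: HIST1H1C made up 43.2% of the H1 sum in treated and 33.8% in untreated cells, and HIST1H1B 30.4% in treated and 42.4% in untreated cells. HIST1H1E was at 426 FPKM treated and 585 FPKM untreated in the libraries labelled HepG2 (−0.46) and at 352 FPKM treated and 387 FPKM untreated in Huh7 (−0.14).

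The most abundant H2B and H4 genes were within 2-fold in both lines. HIST1H2BK was at 393 FPKM treated and 741 FPKM untreated in cells labelled HepG2 (−0.91), and at 328 FPKM treated and 461 FPKM untreated in Huh7 (−0.49). HIST1H4K, whose coding sequence is identical to that of HIST1H4J, was at 503 FPKM treated and 942 FPKM untreated in cells labelled HepG2 (−0.90), and at 465 FPKM treated and 590 FPKM untreated in Huh7 (−0.34). HIST1H4D was at 240 FPKM treated and 453 FPKM untreated in cells labelled HepG2 (−0.92), and at 658 FPKM treated and 790 FPKM untreated in Huh7 (−0.26). In each of these genes the treated library was the lower of its line.

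In Huh7 the count of clustered genes past 2-fold was small and split in direction. Of 63 genes, 4 were at least 2-fold lower (6.35%), against 2.19% of all 11945 genes that passed, and 5 were at least 2-fold higher (7.94%), against 3.88%. The log2 ratio was below 0 for 52 of the 63 and the median was −0.41, beside 0.10 for all genes. The class medians were −0.66 for H2A, −0.35 for H3, −0.29 for H4, −0.22 for H2B and −0.14 for H1. The HIST1 median was −0.49 and the HIST2 median −0.27.

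Most clustered genes had the same direction in both lines. Of 60 clustered genes that passed in both lines, 49 had a ratio below 0 in both, and 56 had the lower ratio in the libraries labelled HepG2. HIST1H2BB and HIST1H2BM were at least 2-fold lower in both lines. In Huh7 HIST1H2BB was at 45.0 FPKM treated and 104 FPKM untreated (−1.19), and HIST1H2BM at 9.85 FPKM treated and 25.9 FPKM untreated (−1.31). A difference between the lines was not tested, since each line has 1 library per condition.

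The 6 clustered genes with a log2 ratio over 3 in size in Huh7 were HIST1H2AM, HIST1H3J, HIST1H2AD, HIST2H4B, HIST1H2AC and HIST1H2BG. The first 4 overlap another gene or share windows. HIST1H2AC and HIST1H2BG do neither by their GENCODE 29 exons but are listed at another position. The listed span of HIST1H2BG overlaps those of HIST1H2AE, HIST1H2BE and HIST1H3E. Of the 71 clustered genes, 13 had an exon overlapping another gene of the table, 26 shared a 75-base window with another member, and 57 were listed at their GENCODE 29 position. The 23 clustered genes at that position with no overlap, no shared window and no other coding gene within their listed span lay closer together. In the libraries labelled HepG2, 17 of the 23 passed, with 6 lower, 0 higher and a median of −0.92, and all 17 had a ratio below 0. In Huh7, 18 passed, with 2 lower, 0 higher and a median of −0.59. Across the 16 that passed in both lines the ratios of the lines had a Pearson r of 0.91 and a Spearman rho of 0.84, against 0.26 and 0.61 across all 60. Genes are not independent replicates, and these correlations only describe the 4 libraries.

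**Figure D3:**
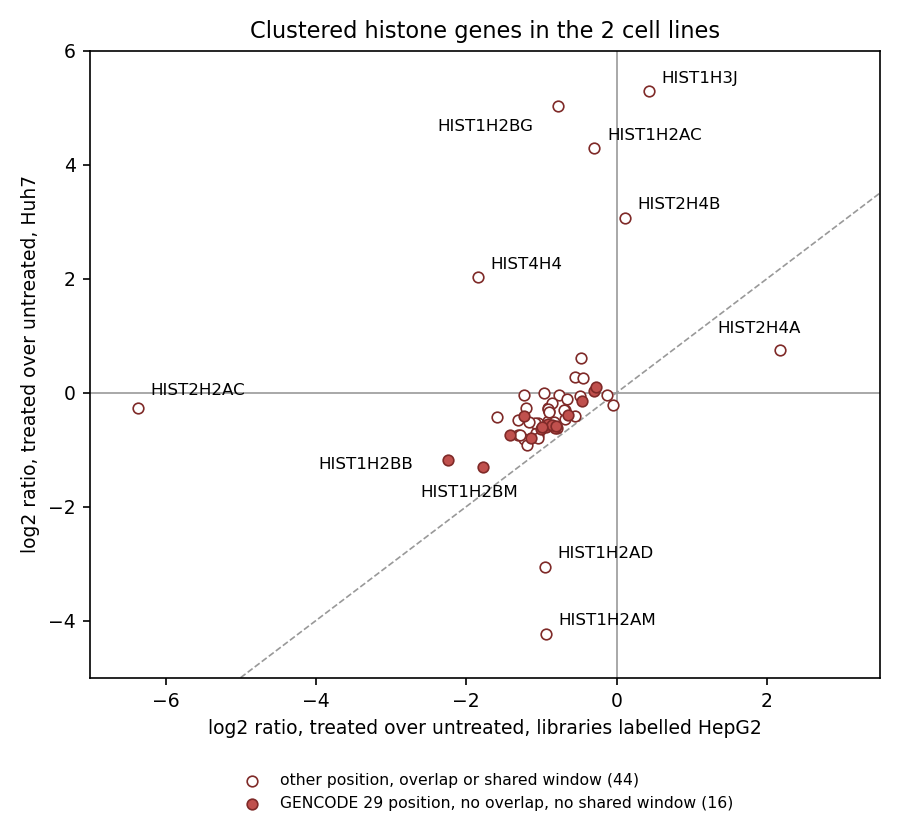
Log2 ratio of treated over untreated FPKM + 1 in Huh7 against that in the libraries labelled HepG2, for the 60 clustered genes that passed in both, with the dashed line at equal ratios. The 16 filled points, genes without overlap or shared window at their annotated position, lie closer together than the open points. Names mark the open points far from the rest and the filled points of HIST1H2BB and HIST1H2BM.

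Several genes far off the common pattern in Huh7 overlapped a neighbour. HIST1H2AM, an H2A gene, was at 7.92 FPKM treated and 167 FPKM untreated (−4.23), while HIST1H3J, an H3 gene, was at 73.7 FPKM treated and 0.906 FPKM untreated (5.29). These lie on the same strand of chromosome 6, and 88.0% of the exonic bases of HIST1H2AM fall inside HIST1H3J. The overlap is only 44.6% of the exonic bases of HIST1H3J, so the models differ in length. Summed FPKM of such models do not track reads that move from one to the other. Their sum was 81.6 FPKM treated and 168 FPKM untreated in Huh7, and 103 FPKM treated and 194 FPKM untreated in cells labelled HepG2. HIST1H2AD was at 28.2 FPKM treated and 241 FPKM untreated in Huh7 (−3.05), and 98.0% of its exon lies inside the same-strand gene AL031777.3, which was at 7.26 FPKM treated and 23.8 FPKM untreated. Their sum was 35.4 FPKM treated and 265 FPKM untreated in Huh7 (−2.87), beside the clustered median of −0.41. HIST1H3D also lies wholly inside AL031777.3, so the limit on summed FPKM holds here too.

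The remaining clustered genes at least 2-fold higher in treated Huh7 cells were HIST1H2BG, HIST1H2AC, HIST2H4B and HIST4H4, and all 4 were listed at a position other than that of GENCODE 29. HIST1H2BG, whose listed span overlaps that of HIST1H2AE, was at 40.3 FPKM treated and 0.267 FPKM untreated (5.03). The listed spans of HIST1H2BE and HIST1H3E overlap both. By FPKM among coding genes, HIST1H2BE, which encodes the same protein as HIST1H2BG, ranked 605 in treated and 640 in untreated Huh7 cells. Its ranks were 12146 in treated and 11705 in untreated cells labelled HepG2. The sharing of reads between these models was not tested. HIST1H2AC was at 101 FPKM treated and 4.19 FPKM untreated (4.29). Its listed span, chr6:26124145-26141068, overlaps an antisense transcript of the noncoding table with the opposite order, at 0.829 FPKM treated and 31.9 FPKM untreated in Huh7. That transcript was at 7.13 FPKM treated and 66.2 FPKM untreated in cells labelled HepG2, where HIST1H2AC was at 16.7 FPKM treated and 20.7 FPKM untreated (−0.29). The labels do not say whether strand was kept, so reads from both strands cannot be told apart.

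HIST2H4A and HIST2H4B share their coding sequence, and 96.2% and 97.1% of their windows occur in another member. HIST2H4A was at 95.5 FPKM treated and 20.4 FPKM untreated in cells labelled HepG2 (2.18), the only clustered gene at least 2-fold higher there, and at 237 FPKM treated and 140 FPKM untreated in Huh7 (0.75). HIST2H4B was at 21.9 FPKM treated and 20.2 FPKM untreated in cells labelled HepG2 (0.11), and at 114 FPKM treated and 12.6 FPKM untreated in Huh7 (3.07). The sum of both was 117 FPKM treated and 40.5 FPKM untreated in cells labelled HepG2, and 350 FPKM treated and 153 FPKM untreated in Huh7. HIST4H4 was at 68.7 FPKM treated and 16.1 FPKM untreated in Huh7 (2.03), the reverse of its ratio in cells labelled HepG2.

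Many H2A and H2B genes lie head to head and share the stretch between their start codons, so 12 such pairs with 303 to 381 bases between the start codons were compared. In the 11 pairs with both members measured, the median absolute difference between the log2 ratios of the partners was 0.40 in the libraries labelled HepG2 and 0.39 in Huh7. HIST1H2AI and HIST1H2BL were a close pair, at −1.04 and −0.83 in cells labelled HepG2 and −0.75 and −0.51 in Huh7. The partners differed by over 1 in 2 pairs of the libraries labelled HepG2 and in 4 pairs of Huh7. In the libraries labelled HepG2 these were HIST2H2AC with HIST2H2BE and HIST1H2AK with HIST1H2BN, whose exon holds all of HIST1H2AK. In Huh7 they were the pairs of HIST1H2AD and HIST1H2AM, which overlap another gene, and of HIST1H2AC and HIST1H2BG, listed away from their annotated position. HIST1H2AI and HIST1H2BL also share windows with another member, yet lay close. The part of read assignment in these differences was not tested. HIST2H2BE, the partner of HIST2H2AC, was at 33.3 FPKM treated and 57.4 FPKM untreated in cells labelled HepG2 (−0.77). HIST2H2AB, an H2A gene beside this pair, was at 192 FPKM treated and 262 FPKM untreated (−0.44). Neither neighbour of HIST2H2AC was past 2-fold.

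**Figure D4:**
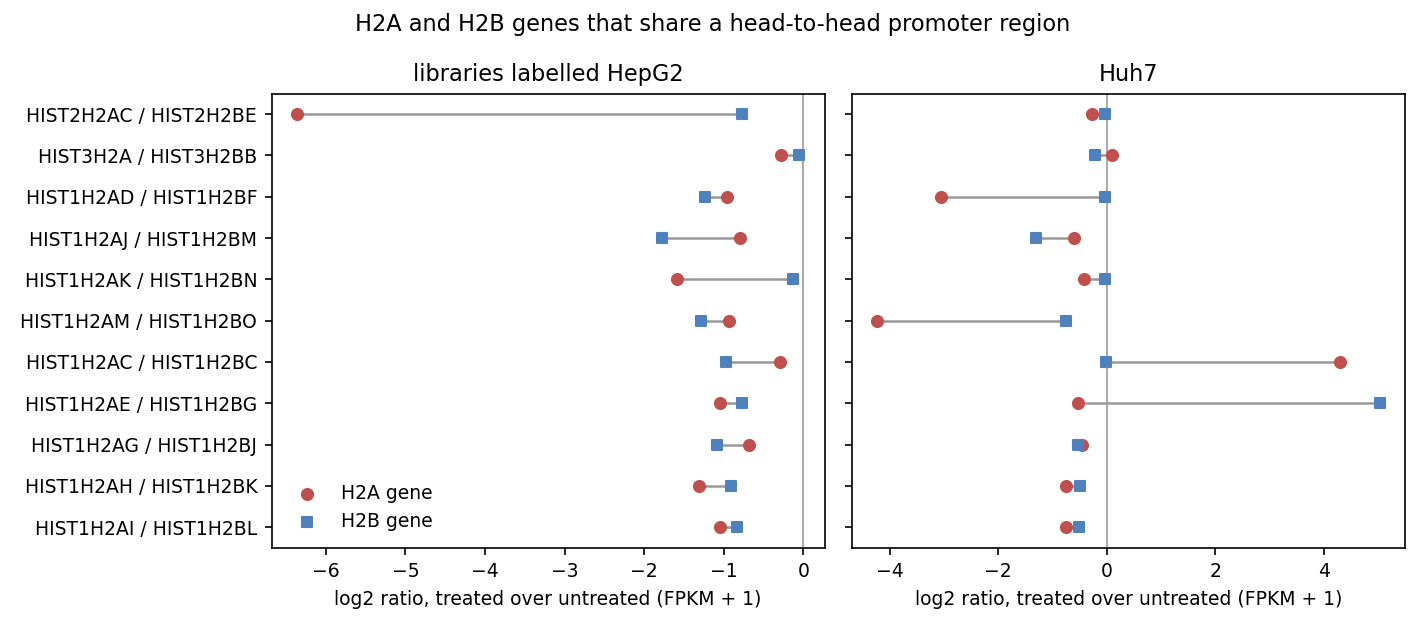
Log2 ratio of treated over untreated FPKM + 1 of the H2A gene (red circle) and the H2B gene (blue square) of the 11 head-to-head pairs with measured members, 1 pair per row. Most partners lie within 0.5 of each other (7 of 11 in the libraries labelled HepG2 and 6 of 11 in Huh7), and HIST2H2AC and HIST2H2BE are 5.59 apart in the libraries labelled HepG2.

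Promoter sequences from RefSeq (GRCh38.p14), 250 bases before to 50 bases after the start, were matched for 61 clustered and 16 replacement genes. The octamer ATTTGCAT, searched on both strands, was in 11 of 16 H2A promoters, in 9 of 13 H2B promoters and in none of the H1, H3 and H4 promoters matched, beside 1.77% of all 35116 promoters of the table. CCAAT was in 51 of 61 clustered and 13 of 16 replacement promoters, beside 34.6% of all, but in only 3 of 13 H4 promoters. TATAAA was in 41 of 61 clustered and 4 of 16 replacement promoters, beside 11.5% of all. Matches of different motifs shared a base in 0 cases over these promoters, and a match is a description and not a binding site. The 250 bases before the start are shown for the gene with the lowest ratio, for the 2 genes at least 2-fold lower in both lines and for 2 replacement genes, with matches to the 3 motifs on either strand in capitals.
HIST2H2AC: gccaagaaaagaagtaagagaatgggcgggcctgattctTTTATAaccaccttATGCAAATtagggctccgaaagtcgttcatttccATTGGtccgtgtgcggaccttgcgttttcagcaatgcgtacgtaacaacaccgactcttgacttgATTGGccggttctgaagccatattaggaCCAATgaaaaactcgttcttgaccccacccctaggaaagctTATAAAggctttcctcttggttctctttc
HIST1H2BB: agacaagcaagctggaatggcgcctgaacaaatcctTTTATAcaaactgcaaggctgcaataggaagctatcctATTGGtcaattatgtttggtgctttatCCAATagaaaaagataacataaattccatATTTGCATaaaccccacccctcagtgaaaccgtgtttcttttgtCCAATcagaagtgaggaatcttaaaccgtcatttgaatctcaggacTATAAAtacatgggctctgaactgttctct
HIST1H2BM: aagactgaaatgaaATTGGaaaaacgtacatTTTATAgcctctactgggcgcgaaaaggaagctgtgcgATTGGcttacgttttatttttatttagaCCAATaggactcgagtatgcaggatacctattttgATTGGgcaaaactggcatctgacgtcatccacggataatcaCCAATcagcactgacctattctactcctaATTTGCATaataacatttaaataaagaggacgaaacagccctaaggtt
H3F3B: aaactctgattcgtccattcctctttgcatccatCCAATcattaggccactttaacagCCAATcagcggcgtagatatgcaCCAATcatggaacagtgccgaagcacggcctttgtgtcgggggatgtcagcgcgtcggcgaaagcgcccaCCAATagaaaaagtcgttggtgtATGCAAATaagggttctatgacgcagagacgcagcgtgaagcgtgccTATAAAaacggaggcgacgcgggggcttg
H2AFZ: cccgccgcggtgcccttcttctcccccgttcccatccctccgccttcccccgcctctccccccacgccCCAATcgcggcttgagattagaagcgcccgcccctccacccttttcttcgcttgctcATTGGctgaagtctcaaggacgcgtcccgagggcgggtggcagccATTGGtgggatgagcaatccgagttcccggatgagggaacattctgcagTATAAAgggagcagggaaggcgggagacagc
These lie at chr1:149886668-149886917 on the plus strand, chr6:26043714-26043963 on the minus strand, chr6:27814772-27815021 on the plus strand, chr17:75779780-75780029 on the minus strand and chr4:99950276-99950525 on the minus strand. HIST2H2AC shares most of its stretch with HIST2H2BE. H3F3B was the 1 replacement gene with the octamer.

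The median ratios of H2A and H2B genes lay close together with and without the octamer, and no test was made. In the libraries labelled HepG2, 18 measured genes with it had a median log2 ratio of −0.95 and 9 without it had −0.83. In Huh7 the medians were −0.54 with it and −0.43 without it. H2A and H2B genes in head-to-head pairs had medians of −0.95 and −0.47 in the libraries labelled HepG2 and in Huh7, and those outside pairs −1.06 and −0.41.

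Clustered genes that are known to give polyadenylated messengers too were described apart, from a list of 9 genes. In the libraries labelled HepG2 all 9 had a ratio below 0, with 3 at least 2-fold lower (HIST2H2AA3, HIST2H2AA4 and HIST4H4) and a median of −0.91, the same to 2 decimals as the −0.91 of the other 52. In Huh7 the median of the 9 was −0.04, with HIST1H2AC and HIST4H4 higher, beside −0.42 for the other 54. HIST1H2BC was at 285 FPKM treated and 559 FPKM untreated in cells labelled HepG2 (−0.97), and at 281 FPKM treated and 283 FPKM untreated in Huh7 (−0.01). HIST1H2BD was at 192 FPKM treated and 283 FPKM untreated in cells labelled HepG2 (−0.56), and at 133 FPKM treated and 177 FPKM untreated in Huh7 (−0.41).

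The ratios were also set beside the annotated model of each gene. Clustered genes whose GENCODE 29 model ends within 100 bases of the stem-loop had a median of −0.98 over 8 genes in the libraries labelled HepG2 and −0.56 over 8 genes in Huh7. Those with a model that runs over 100 bases past it had −0.70 over 22 genes and −0.04 over 22 genes. Those with no stem-loop in the model had −0.99 over 31 genes and −0.54 over 33 genes. Which models the authors used is not known, and the part of model length in these ratios was not tested.

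The HIST3 genes stayed near level. HIST3H2A was at 39.0 FPKM treated and 47.4 FPKM untreated in cells labelled HepG2 (−0.28), and at 38.5 FPKM treated and 35.7 FPKM untreated in Huh7 (0.10). HIST3H2BB was at 5.97 FPKM treated and 6.22 FPKM untreated in cells labelled HepG2 (−0.05), and at 7.54 FPKM treated and 8.95 FPKM untreated in Huh7 (−0.22). Both fall short of 2-fold in each line, and HIST3H3 did not pass the filter.

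Replacement histones were mostly within 2-fold in the libraries labelled HepG2. Of 19 genes 9 passed, 0 were lower (beside the 2.43% of all genes), 1 was higher (11.1%, beside 6.7%), and the median log2 ratio was 0.03, or −0.09 when libraries were scaled by size factors. H1F0, the linker histone of cells that leave the cycle, was at 26.8 FPKM treated and 12.1 FPKM untreated (1.09). With size factors its ratio was 0.97, short of 2-fold. In Huh7 it was at 10.9 FPKM treated and 13.5 FPKM untreated (−0.29). H1FX, a further linker variant, was at 61.6 FPKM treated and 43.1 FPKM untreated in cells labelled HepG2 (0.50), and at 36.3 FPKM treated and 33.8 FPKM untreated in Huh7 (0.10).

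In Huh7 10 replacement genes passed, 1 was lower (beside the 2.19% of all genes), none was higher, and the median was −0.26. The gene past 2-fold was H2AFZ, the H2A variant that flanks transcription starts, at 103 FPKM treated and 219 FPKM untreated (−1.08). In cells labelled HepG2 it was at 223 FPKM treated and 217 FPKM untreated (0.03). H2AFV, its close paralog, was at 41.0 FPKM treated and 62.3 FPKM untreated in Huh7 (−0.59), and at 38.9 FPKM treated and 53.6 FPKM untreated in cells labelled HepG2 (−0.45). The sum of both was 144 FPKM treated and 281 FPKM untreated in Huh7, and 261 FPKM treated and 271 FPKM untreated in cells labelled HepG2.

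The 2 genes for the H3 replacement variant went apart. H3F3A was at 122 FPKM treated and 118 FPKM untreated in cells labelled HepG2 (0.04), and at 141 FPKM treated and 143 FPKM untreated in Huh7 (−0.02). H3F3B was at 62.5 FPKM treated and 113 FPKM untreated in cells labelled HepG2 (−0.85), and at 48.3 FPKM treated and 73.4 FPKM untreated in Huh7 (−0.59). H3F3B was the lower of its pair in each of the 4 libraries.

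The other H2A variants lay within 2-fold on the log2(FPKM + 1) scale. H2AFX, whose product is phosphorylated at DNA breaks, was at 72.2 FPKM treated and 71.2 FPKM untreated in cells labelled HepG2 (0.02), and at 40.2 FPKM treated and 47.4 FPKM untreated in Huh7 (−0.23). H2AFY, which encodes macroH2A, was at 64.9 FPKM treated and 69.9 FPKM untreated in cells labelled HepG2 (−0.11), and at 68.4 FPKM treated and 63.0 FPKM untreated in Huh7 (0.12). H2AFJ was at 35.7 FPKM treated and 25.9 FPKM untreated in cells labelled HepG2 (0.45), and at 54.2 FPKM treated and 60.02 FPKM untreated in Huh7 (−0.15). H2AFY2, a second macroH2A gene, was listed at 0 treated and at 0.0201 FPKM untreated in cells labelled HepG2, and at 2.93 FPKM treated and 6.63 FPKM untreated in Huh7 (−0.96). The Huh7 ratio of H2AFY2 was past 2-fold with a pseudocount of 0.1 (−1.15) and with size factors (−1.08). The 9 replacement genes that did not pass in any library were below 1 FPKM throughout.

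**Figure D5:**
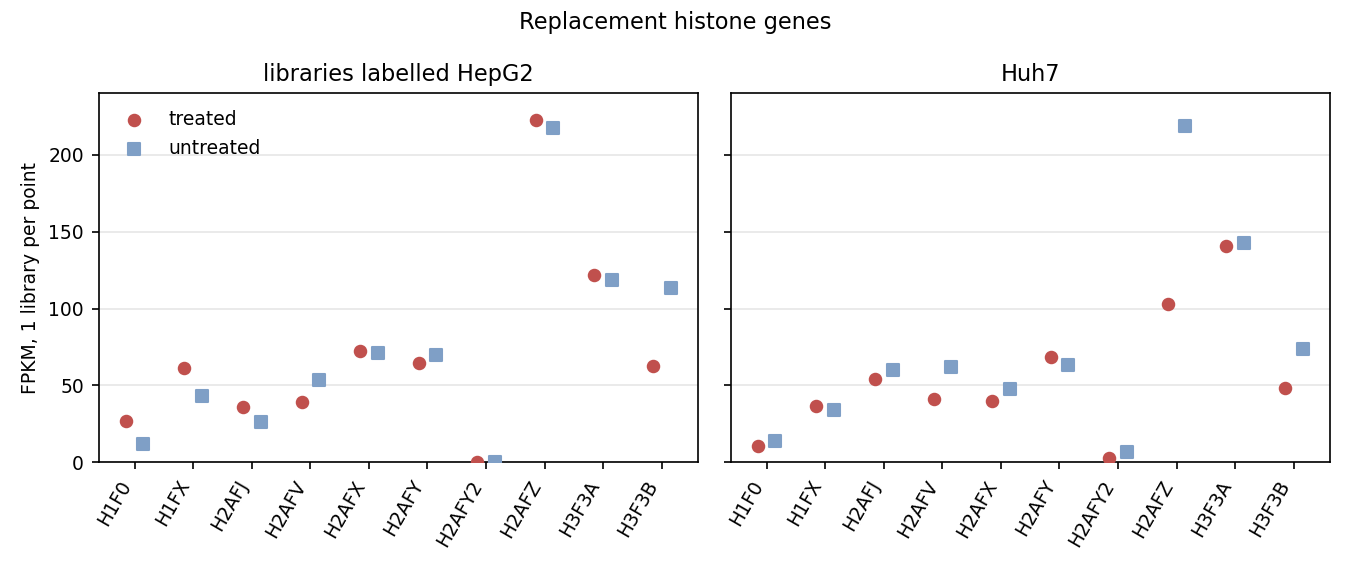
FPKM of the 10 replacement histone genes that passed in at least 1 line, treated (red circles) left of untreated (blue squares), 1 library per point. H2AFZ is the highest in the libraries labelled HepG2 at 223 FPKM treated and 217 FPKM untreated, and in Huh7 its treated point at 103 FPKM lies well below the untreated one at 219 FPKM.

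Genes that serve histone supply were read from a list of 43, all measured in both lines. In the libraries labelled HepG2 3 of the 43 were at least 2-fold lower and none higher (beside 2.43% and 6.7% of all genes), with a median log2 ratio of −0.13. These were ANP32E, an H2A.Z chaperone (11.6 FPKM treated, 28.03 FPKM untreated), IPO4, an importer of histones (12.3 FPKM treated and 27.6 FPKM untreated), and CCNE2, a cyclin of S phase entry (4.50 FPKM treated and 11.4 FPKM untreated). In Huh7 2 of the 43 were lower and none higher (beside 2.19% and 3.88% of all genes), with a median of −0.11. These were PCNA, the replication clamp (79.7 FPKM treated, 202 FPKM untreated), and MCM2, a subunit of the replicative helicase (38.1 FPKM treated and 81.3 FPKM untreated). The 9 genes of S phase entry had medians of −0.47 in the libraries labelled HepG2 and −0.86 in Huh7, so the S phase median was the lower in Huh7, where the clustered median was nearer to 0.

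The factors that make the histone messenger were not past 2-fold in either line. SLBP, which binds the stem-loop, was at 63.4 FPKM treated and 75.7 FPKM untreated in cells labelled HepG2 (−0.25), and at 66.2 FPKM treated and 110 FPKM untreated in Huh7 (−0.73). NPAT, the coactivator of histone transcription, was at 4.49 FPKM treated and 4.93 FPKM untreated in cells labelled HepG2 (−0.11), and at 3.28 FPKM treated and 1.87 FPKM untreated in Huh7 (0.57). LSM11, a part of the small ribonucleoprotein that directs cleavage, was at 4.94 FPKM treated and 3.26 FPKM untreated in cells labelled HepG2 (0.48), and at 4.42 FPKM treated and 2.24 FPKM untreated in Huh7 (0.74). The 12 genes of this group had medians of −0.02 in the libraries labelled HepG2 and 0.12 in Huh7.

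The treatment was also tested over both lines with limma on log2(FPKM + 1), with cell line as a block and 1 residual degree of freedom. At an adjusted p under 0.05, 0 of the 64 clustered and 0 of the 10 replacement genes passed, beside 0% of all 13030 genes tested. At an unadjusted p under 0.05, 40 of the 64 clustered genes were lower (62.5%) and 3 higher (HIST1H3J, HIST2H4A and HIST2H4B), while 3.78% of all genes were lower. Counting both directions, 67.2% of the clustered genes were at that level, beside 11.8% of all genes. With no filter on low values 14 of 71 clustered genes (19.7%) had an unadjusted p under 0.05, all of them lower, beside 6.62% of all genes in both directions. The smallest p among members was that of HIST1H2BM, lower in both lines at a log2 difference of −1.54 ± 0.25 (SE), an unadjusted p of 0.00032 and an adjusted p of 0.199 by limma. HIST1H2BB followed at −1.72 ± 0.28 and an adjusted p of 0.202 by limma. Of the replacement genes H3F3B (−0.72 ± 0.21, adjusted p = 0.289 by limma) and H2AFV (−0.52 ± 0.21, adjusted p = 0.404 by limma) had an unadjusted p under 0.05. This test asks whether the mean log2 ratio over the 2 lines differs from 0, with variances moderated over all genes. A gene that moved mostly in 1 line can be under the unadjusted threshold. HIST2H2AC was, at −6.36 in the libraries labelled HepG2 and −0.27 in Huh7. The counts are therefore no measure of agreement between the lines, nor of what repeat cultures would show.

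Untreated Huh7 cells and untreated cells labelled HepG2 had the same 2 most abundant genes in H2A, H2B and H3, while single genes of lower rank were far apart. Of 64 clustered genes, 15 were at least 2-fold lower in Huh7 (23.4%), against 17.2% of all 12446 genes, and 6 were higher (9.38%), against 17.5%. The median log2 ratio was −0.58. HIST1H3I was at 139 FPKM in untreated Huh7 cells and listed at 0 in untreated cells labelled HepG2, while HIST1H3G was at 0.190 FPKM in Huh7 and 168 FPKM in cells labelled HepG2 (−7.15). HIST1H4L was at 40.5 FPKM in Huh7 and 0.116 FPKM in cells labelled HepG2 (5.22), and HIST1H1A was at 89.4 FPKM in Huh7 and 17.9 FPKM in cells labelled HepG2 (2.26). These 4 genes are at their GENCODE 29 position with no overlap and no shared window. The treated libraries had the same order for all 4, with for example HIST1H3I at 116 FPKM in Huh7 and 0.0476 FPKM in cells labelled HepG2, and HIST1H3G at 0.388 FPKM in Huh7 and 95.4 FPKM in cells labelled HepG2.

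Among replacement genes H2AFJ and H2AFY2 were at least 2-fold higher in untreated Huh7 cells than in untreated cells labelled HepG2, and none was lower. These are 2 of 10 genes (20%), beside 17.5% of all genes higher and 17.2% lower in this contrast. The replacement sum was 722 FPKM in Huh7 and 726 FPKM in cells labelled HepG2, while the clustered sum was 16313 FPKM in Huh7 and 22955 FPKM in cells labelled HepG2.

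The authors' deposited enrichment tables name histone terms for the treated libraries labelled HepG2. In the authors' deposited table the term nucleosome held 38 of the 3213 genes chosen in cells labelled HepG2 (1.18%), with a corrected p of 2.72e-08. It held 114 of the 22135 background genes (0.515%). Of the 38, 36 were clustered and 1 was a replacement member. In the authors' deposited table for Huh7 the term held 15 of the 2438 genes chosen (0.615%), 10 clustered and 2 replacement, with a corrected p of 0.343. DNA replication-dependent nucleosome assembly had a corrected p of 0.00159 in the authors' deposited table for cells labelled HepG2 and of 1 in that for Huh7. The KEGG pathway Alcoholism, which lists core histone genes, had 180 genes in the background. In the authors' deposited table for cells labelled HepG2 it held 60 genes, 33 of them clustered (corrected p = 0.0651). In the authors' deposited table for Huh7 it held 27 genes, 10 of them clustered (corrected p = 0.983). Systemic lupus erythematosus, likewise, had corrected p-values of 0.479 and 0.909 in the authors' deposited tables for cells labelled HepG2 and for Huh7. Of the 33 clustered genes so listed for cells labelled HepG2, 31 had a ratio below 0 here, beside 58 of the 61 clustered genes that passed. The authors' list and these ratios come from the same libraries, so the count is no independent check. The rule by which the authors chose these genes is not stated.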

How the data were processed

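RNA was taken from 2 cell lines, each treated for 24 h or untreated, with 1 library per group; per the labels' protocols, libraries were made from 1 µg of total RNA with a TruSeq kit. The authors deposited FPKM per coding gene and per long noncoding transcript, per the file headers. No count model was used, as the deposited FPKM hold no counts. Per the submitters' processing notes, with no roles given, HISAT2, GATK, SAMtools 0.1.18, Cuffdiff 2.1.1, StringTie 1.3.1, Picard 1.96 and Bowtie2 2.2.8 were used. The authors also deposited enrichment tables with p-values, per the file headers.

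Genes with 1 FPKM or more in at least 1 of 2 libraries were compared by log2((treated + 1)/(untreated + 1)), which understates the change of low genes. Depth was inferred from the smallest step of FPKM times length; only 53.3% to 55.2% of low values lay within 0.1 of a whole fragment, so counts were not recovered, and Poisson intervals (95%) cover counting error only. Overlaps, coding sequences and 75-base windows came from GENCODE 29, and promoters from RefSeq (GRCh38.p14). The test was limma 3.58.1 (R 4.3.3). On simulated data with equal noise for all genes and 200 genes changed 8-fold alike in both lines, it called 200 of these and 13 others. Most ratios here are smaller and differ between the lines, so this check does not show what the test recovers at such sizes. The libraries were paired by cell line, from the labels. Python 3.11.15 with pandas 2.3.3 was used. All columns of per-library values were used.

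The genes named are, per line, the 6 clustered members with the largest absolute ratio and every one past 2-fold, the 2 most abundant per class, every replacement gene of 1 FPKM or more, the polyadenylated list, HIST3 and HIST4, and supply genes past 2-fold or acting on the messenger; genes of the pairs and of the contrast of untreated lines were named after their values were seen. The members and lists were chosen with earlier results of these data known. Alternatives changed the pseudocount, the filter, the scaling, the threshold, the summary and the members.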

Additional observations from a re-analysis of the deposited data

Results flagged for a closer look

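Members at least 2-fold apart in one line and moving the other way by over 0.25 on the log2 scale in the other line drew attention; the difference between the lines was not tested, since each line has 1 library per condition. HIST4H4 had a log2 ratio of −1.84 in the libraries labelled HepG2 and 2.03 in Huh7. HIST1H2AC had −0.29 and 4.29, beside an antisense transcript in its listed span. HIST1H2BG had −0.78 and 5.03, with a listed span that overlaps those of HIST1H2AE, HIST1H2BE and HIST1H3E. These 3 genes are listed at a position other than that of GENCODE 29. H1F0 had 1.09 in the libraries labelled HepG2 (0.97, short of 2-fold, with size factors) and −0.29 in Huh7. It is at its GENCODE 29 position with no overlap and no shared window. In cells labelled HepG2 it was at 26.8 FPKM treated and 12.1 FPKM untreated. The 95% Poisson intervals from inferred counts, which cover counting error only, were 25.4 to 28.2 FPKM treated and 11.2 to 13.0 FPKM untreated.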

How the results depend on the processing

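The count of clustered genes at least 2-fold lower in treated cells labelled HepG2 (22) lay between 20 and 33 with a pseudocount of 0.1, no filter, a minimum of 5 FPKM, equal sums, size factors or without HIST2H2AC. At a 1.5-fold threshold it was 47 of 61, with 1 higher. In Huh7 19 of 63 were lower and 7 higher at 1.5-fold, beside 4 lower and 5 higher at 2-fold. The share of all genes past 1.5-fold was not taken, so these counts have no background beside them. Size factors moved the median of all genes by −0.10 in the libraries labelled HepG2 and −0.13 in Huh7, and the counts of all genes higher and lower became 612 and 383 in cells labelled HepG2 (794 and 288 as deposited) and 299 and 372 in Huh7 (464 and 261 as deposited). They also moved the clustered medians to −1.03 in cells labelled HepG2 and −0.56 in Huh7, and the replacement medians to −0.085 in cells labelled HepG2 and −0.40 in Huh7. Without a filter the Huh7 medians were −0.31 (clustered) and −0.034 (replacement), since genes near 0 enter. Means in place of medians gave −0.15 (clustered) and −0.37 (replacement) in Huh7. Keeping only members at their GENCODE 29 position with no overlap and no shared window, an alternative chosen after seeing the data like that without HIST2H2AC, gave 6 lower genes in cells labelled HepG2 and 2 in Huh7, where the median was −0.59; fewer genes enter. No member passed an adjusted p of 0.05 in limma under any of its 7 settings. With no replicate block (cell line left out of the model) the count was also 0, and 9 clustered genes (14.1%) had an unadjusted p under 0.05, beside 0.86% of all genes. With no filter 14 of 71 (19.7%) were at that level, beside 6.62% of all genes. As reported it was 43 of 64 (67.2%), beside 11.8% of all genes. Keeping only members whose protein, translated from GENCODE 29, no other member shares, also chosen after seeing the data in place of a planned version on RefSeq proteins, left 24 measured genes in each line, with 7 lower and a median of −0.78 in cells labelled HepG2, and 3 lower and a median of −0.34 in Huh7. HIST1H2AI (−0.997) and HIST1H3B (−0.96) were short of 2-fold in cells labelled HepG2 with equal sums. Each group holds 1 library, so no library could be left out, and the spread between cultures is unknown.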

Other observations

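Noncoding transcripts that overlap histone genes were listed beside them and were not part of the comparisons. HIST1H2AG-OT1, a transcript overlapping HIST1H2AG and its neighbours, was at 26.8 FPKM in treated and 8.82 FPKM in untreated cells labelled HepG2, and was listed at 0 in both Huh7 libraries. HIST1H2AG itself was at 149 FPKM in treated and 239 FPKM in untreated cells labelled HepG2. CENPA, the centromeric H3, which is outside both histone groups, was at 30.3 FPKM in treated and 23.5 FPKM in untreated cells labelled HepG2 (log2 ratio 0.35), and at 14.5 FPKM in treated and 8.07 FPKM in untreated Huh7 cells (0.77). Each value is from 1 library, so no test was made.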
